A study of Mus musculus with 2 samples.

Results

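Cytochrome P450 (Cyp) genes were examined in lists of methylated DNA regions from the liver of Pemt-/- and Pemt+/+ mice. Members were all genes of the 2 longer region lists whose symbol is Cyp followed by a number, a letter and a number. The rule found 66 genes of the 14480 named in either list, 55 of 13071 in the Pemt-/- library and 64 of 14145 in the Pemt+/+ library. Their regions numbered 112 among 97063 in Pemt-/- and 145 among 131279 in Pemt+/+, of which 4 and 6 belonged to 2 Cyp genes at the same time. Both groups were on high fat-high sucrose (HFHS) diet from 5 weeks of age, and liver was taken at 25 weeks, with 1 library per genotype. The study describes its animals as male, and the Pemt-/- animals lacked the phosphatidylethanolamine N-methyltransferase gene in the whole body. Methylated DNA was enriched with a methyl-binding kit and sequenced. The labels also name bisulphite conversion, which the methods of the study do not, and the methods give shorter feeding times beside the enrichment step than the labels. No value in the region lists checks the genotype of a library. With 1 library per genotype there was no replicate check, so every difference given is between 2 libraries and not between genotypes, and all intervals cover counting error only.

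P450 enzymes are heme proteins that oxidize lipids, steroids and foreign compounds, mostly in the endoplasmic reticulum and partly in mitochondria. The liver is the main site of drug-metabolizing families, of fatty acid hydroxylation and of bile acid synthesis from cholesterol, whereas the adrenal gland, gonads, brain, skin and airways use other members. Many P450 genes stand in tandem clusters that grew by gene duplication in rodents, so neighbours can be nearly identical in sequence. DNA methylation at CpG sites near a transcript start is in general associated with low transcription, while methylation inside transcribed genes is common.

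A region is a stretch where the authors' peak caller found enrichment, and its tags are the reads counted in it. The Cyp genes had 8 to 43 tags per region in the Pemt-/- library and 9 to 62 in the Pemt+/+ library. The median was 12.5 tags (95% interval 11 to 14, n = 112 regions) in Pemt-/- and 17 tags (15 to 18, n = 145) in Pemt+/+, beside 13 and 17 for all regions of the same lists. A Cyp gene with a region had a median of 2 regions in each library, with up to 8 in Pemt-/- and 10 in Pemt+/+, both at Cyp39a1. The median over all listed genes was 2 regions in Pemt-/- and 3 in Pemt+/+. Summed over its regions a Cyp gene had a median of 27 tags in Pemt-/- and 34 in Pemt+/+, below the 37 and 62 of all listed genes. Tags per region were thus close to those of the lists as a whole, and tags per gene were lower. The total number of sequenced reads is not given in the region lists, so tag counts of the libraries were compared through the median ratio of all regions found in both.

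The Cyp1a pair showed a methylated region close to a transcript start in both libraries. Cyp1a1 and Cyp1a2, which oxidize polycyclic aromatic compounds and caffeine-like substrates, lie head to head on chromosome 9, and the starts of the transcripts used in the authors' annotation, worked out from the listed distances, were 4272 bp apart (mm9). The region between them had 23 tags in Pemt-/- (57532223 to 57532585) and 28 tags in Pemt+/+ (57532250 to 57532574). It ended 761 bp from the start of Cyp1a2 in Pemt-/- and 788 bp in Pemt+/+, and 3149 and 3160 bp from the start of Cyp1a1. The sequence just upstream of a start is shown for Cyp1a2, and for Cyp4b1 and Cyp27a1, which each had an upstream region in the Pemt+/+ library only. Each line holds the 250 bases before the start on the strand of the gene from RefSeq (GRCm38.p6), with CpG sites in capitals. The 3 stretches are chr9:57683656-57683905 (minus strand), chr4:115647722-115647971 (minus) and chr1:74713285-74713534 (plus).
Cyp1a2: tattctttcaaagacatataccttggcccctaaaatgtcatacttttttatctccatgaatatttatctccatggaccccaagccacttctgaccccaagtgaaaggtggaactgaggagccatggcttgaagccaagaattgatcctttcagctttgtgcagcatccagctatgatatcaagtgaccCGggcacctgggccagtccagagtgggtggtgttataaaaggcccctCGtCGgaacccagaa
Cyp4b1: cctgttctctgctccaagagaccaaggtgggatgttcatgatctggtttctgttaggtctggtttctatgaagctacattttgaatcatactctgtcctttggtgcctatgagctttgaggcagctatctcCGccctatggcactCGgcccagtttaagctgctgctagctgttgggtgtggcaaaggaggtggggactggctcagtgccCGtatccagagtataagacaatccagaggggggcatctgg
Cyp27a1: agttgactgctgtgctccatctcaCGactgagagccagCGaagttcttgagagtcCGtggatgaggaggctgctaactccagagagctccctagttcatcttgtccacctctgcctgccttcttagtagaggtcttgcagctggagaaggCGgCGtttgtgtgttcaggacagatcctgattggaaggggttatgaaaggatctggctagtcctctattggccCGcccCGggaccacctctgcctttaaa
Cyp1a2 and Cyp4b1 had 3 CpG sites each, and Cyp27a1 had 7, where the median of 32851 RefSeq promoters was 6. In all, 37.8% of promoters had 3 or fewer and 57.0% had 7 or fewer. Of these promoters, 92.1% held at least 1 CG. TATAAA or its reverse complement TTTATA occurred once upstream of Cyp1a2 and in 12.4% of promoters. In mm9, no listed region came within 250 bases upstream of the starts of these 3 genes.

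None of the 55 Pemt-/- or 64 Pemt+/+ Cyp genes had a region that overlapped the 5′ end of its transcript. Over all genes of each list the share was 1.9% and 2.6%, and a count of 0 among this many genes was not read as different from that background. A region at the 5′ end or within 2 kb upstream was found at 2 of 55 genes in Pemt-/- (3.64%), against 9.67% of all genes, and at 6 of 64 in Pemt+/+ (9.38%), against 12.4%. Cyp1a2 and Cyp2g1, an olfactory enzyme, were the genes counted in Pemt-/-. In Pemt+/+ these were joined by Cyp2c44 at 426 bp, Cyp4b1 at 577 bp, Cyp27a1 at 1696 bp and Cyp4a32 at 1716 bp. The 4 additional Pemt+/+ regions were small, with 10 tags at Cyp2c44, 11 at Cyp4b1, 11 at Cyp27a1 and 10 at Cyp4a32, and no overlapping region was listed in Pemt-/-. For 32 of 66 transcripts the start could be placed, which requires a region upstream in at least 1 library. Cyp3a25, Cyp3a57 and Cyp4b1 had such a region in Pemt+/+, but their starts were not placed. In the 32 placed transcripts the median distance of the nearest region from the start was 5394 bp in Pemt-/- (n = 31). In Pemt+/+ it was 5117.5 bp (n = 32). Because a region within 10 kb upstream was required, these medians depend in part on that choice. The closest region was inside Cyp2t4, 271 bp and 301 bp downstream of its start, with 14 and 17 tags.

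**Figure D1:**
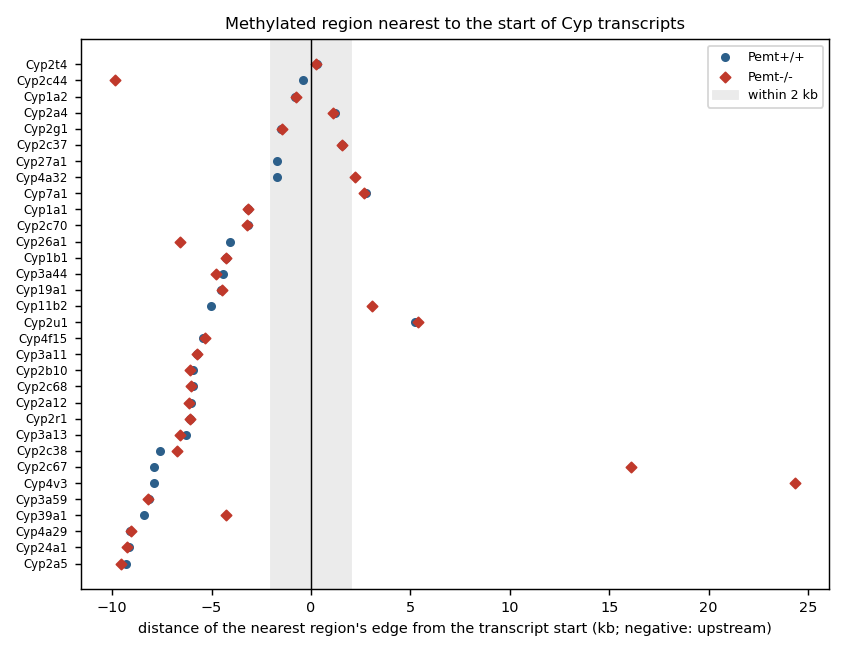
Distance (kb) from the transcript start to the nearest edge of the closest methylated region for 32 Cyp transcripts, in Pemt-/- (red diamonds) and Pemt+/+ (blue circles), with upstream regions to the left of 0. 5 Pemt-/- and 8 Pemt+/+ points are within 2 kb (grey band), and only transcripts with a listed upstream region could be drawn. Cyp4b1, with a Pemt+/+ region 577 bp upstream, is not drawn.

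The place of Cyp regions was described by the authors' annotation to a transcript within 10 kb, which gave 116 region-gene pairs in Pemt-/- and 151 in Pemt+/+. Regions inside or overlapping the transcript made up 49.1% of Cyp pairs in Pemt-/- (57 of 116, 95% Wilson interval 40.2 to 58.1%) and 49.0% in Pemt+/+ (74 of 151, 41.2 to 56.9%). Over all genes these shares were 72.9% and 72.3%. Upstream regions made up 25.0% and 27.2% of Cyp pairs against 13.0% and 13.3%, and downstream regions 25.9% and 23.8% against 14.1% and 14.4%. The share inside rises with gene length, and long genes supply most pairs of the lists. In genes of 20 to 50 kb it was 59.0% for Cyp genes (43.4 to 72.9%) and 65.7% for all genes in Pemt-/-, and 56.4% (43.3 to 68.6%) and 65.7% in Pemt+/+. In genes under 20 kb it was 27.1% (16.6 to 41.0%) and 36.9% in Pemt-/-, and 28.6% (18.9 to 40.7%) and 36.8% in Pemt+/+. The interval of the Cyp share therefore held the share of all genes in both of these length classes. In genes of 50 kb or more the share of all genes lay above the interval of the Cyp share, with 72.4% (54.3 to 85.3%) against 88.4% in Pemt-/- and 75.8% (59.0 to 87.2%) against 88.4% in Pemt+/+.

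**Figure D2:**
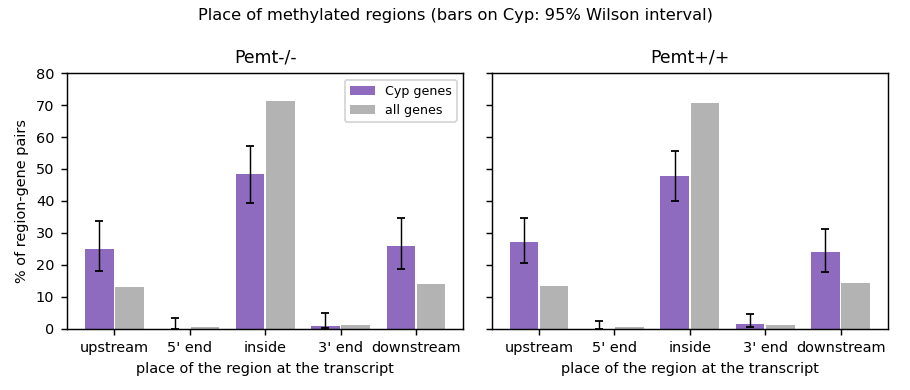
Place of methylated regions at the transcript as a percentage of region-gene pairs, for Cyp genes (purple, with 95% Wilson intervals) and all genes (grey), in Pemt-/- (left) and Pemt+/+ (right). Cyp pairs were inside the transcript less often than all pairs and more often upstream or downstream, without correction for gene length.

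The number of regions was then set against gene length, taking each gene with 10 kb on both sides. The 93 RefSeq protein-coding genes that follow the symbol rule had 2.60 regions per 100 kb in Pemt-/- (exact Poisson interval 2.15 to 3.12) and 3.38 in Pemt+/+ (2.86 to 3.97). All protein-coding genes had 3.52 and 4.83. The size of the difference varied with gene length. In genes of 20 to 50 kb, 39 Cyp genes had 1.91 regions per 100 kb in Pemt-/- (1.36 to 2.61) against 3.94 for all genes, and 2.69 in Pemt+/+ (2.03 to 3.50) against 5.48. Of these 39 genes, 31 belong to subfamilies of 4 or more genes. The other length classes gave values in both directions. Below 10 kb the density was 3.38 (2.12 to 5.11) against 2.91 in Pemt-/-, and 4.61 (3.11 to 6.58) against 4.19 in Pemt+/+. Between 10 and 20 kb the densities were 3.75 (2.45 to 5.49) against 3.90, and 4.76 (3.27 to 6.68) against 5.58. The 6 Cyp genes of 50 to 100 kb had 4.42 (2.80 to 6.63) against 4.10 in Pemt-/- and 3.84 (2.35 to 5.94) against 5.46 in Pemt+/+. The 3 genes over 100 kb had 1.08 (0.396 to 2.35) against 3.26, and 2.34 (1.24 to 3.995) against 4.38, both below the value of all genes. Of these 3 genes, Cyp2c39 was the longest in RefSeq, with 222.2 kb, and had no region. Values of this class without Cyp2c39 were not computed. Leaving it out would raise both densities, so the distance of their intervals from the value of all genes may rest on this gene. Reads that match several near-identical copies can be lost or split between them, and how such reads were treated is not given in the sources used here. Their part in the density was not tested.

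Subfamilies were then set apart by their number of genes. Of 60 genes in subfamilies of 4 or more, 38 had a region under a symbol of the rule (63.3%, 50.7 to 74.4%), and their density was 2.09 per 100 kb (1.60 to 2.67) in Pemt-/- and 2.42 (1.90 to 3.04) in Pemt+/+. Of 33 genes in subfamilies of 3 or fewer, 28 had a region (84.8%, 69.1 to 93.3%), so that the intervals of these shares overlapped, with 3.66 (2.74 to 4.78) and 5.38 (4.26 to 6.72) per 100 kb. The intervals of the densities did not overlap in either library. The larger subfamilies include Cyp2c39, whose RefSeq length was 222.2 kb and which had no region. Densities of the subfamilies without Cyp2c39 were not computed. Leaving it out would raise the densities of the larger subfamilies, and in Pemt-/- the intervals were apart only by 2.67 against 2.74. Their separation in that library may therefore rest on this gene. With the upper 50% of regions by score the order was kept but the intervals overlapped in both libraries, at 1.03 (0.698 to 1.46) against 1.45 (0.897 to 2.22) in Pemt-/- and 1.56 (1.14 to 2.07) against 2.48 (1.74 to 3.44) in Pemt+/+. With lists of equal size they also overlapped in Pemt+/+, at 2.02 (1.55 to 2.60) against 3.24 (2.38 to 4.31), and with any symbol that starts with Cyp and a digit they touched in Pemt-/-, at 2.31 (1.82 to 2.894) against 3.82 (2.892 to 4.95). In Pemt-/-, 55 of the 93 genes had a region (59.1%), against 58.4% of all protein-coding genes, in Pemt+/+ 64 (68.8%), against 63.1%, and in either library 66 (71.0%), against 64.6%. A total of 26 genes had no listed region, and 1 more, Cyp4f37, was listed under a numeric symbol. Among those without a region were Cyp8b1, the sterol 12α-hydroxylase of bile acid synthesis, Cyp11a1, which starts steroid hormone synthesis from cholesterol, and Cyp27b1, which activates vitamin D. Cyp2c29, Cyp2d22, Cyp4a10, Cyp2j5 and Cyp2w1 also had none. The lists hold only regions past the caller's limit, so absence from them does not show absence of methylation.

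**Figure D3:**
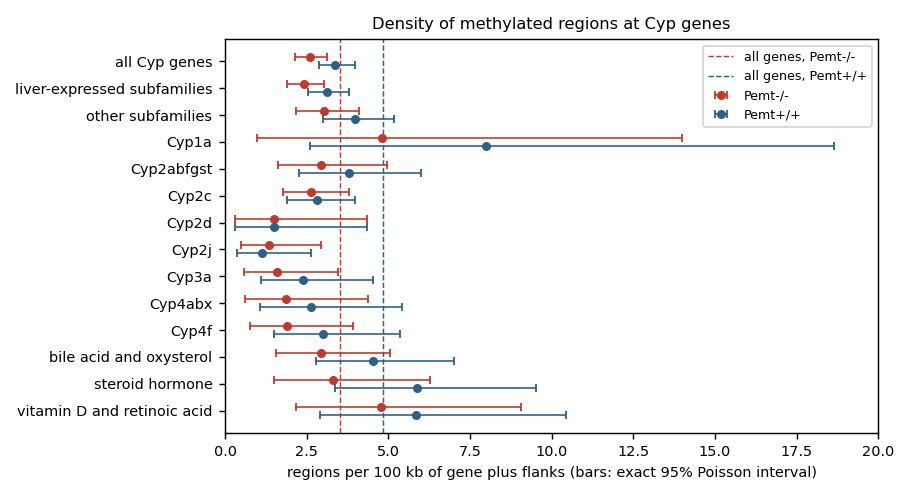
Methylated regions per 100 kb of gene plus 10 kb flanks for all Cyp genes, for the liver-expressed and other subfamilies and for 11 clusters, in Pemt-/- (red) and Pemt+/+ (blue). Bars are exact 95% Poisson intervals and dashed lines mark all protein-coding genes, at 3.52 in Pemt-/- and 4.83 in Pemt+/+; Cyp2j, Cyp2d and Cyp3a are at the low end.

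The 44 members of subfamilies known for expression in liver were set beside the 22 others. The grouping was by whole subfamily from general knowledge and expression was not measured. The other group can therefore hold genes that are expressed in liver. Of 62 and 31 RefSeq genes in these groups, the same share of 71.0% had a region in either library. Liver-expressed genes had 2.41 regions per 100 kb (1.90 to 3.03) in Pemt-/- and 3.12 (2.53 to 3.81) in Pemt+/+, and the others had 3.02 (2.17 to 4.09) and 3.98 (2.99 to 5.19). The intervals overlapped. Restricting both lists to the better-scoring 50% of regions turned the order, with 1.26 against 0.957 in Pemt-/- and 1.93 against 1.69 in Pemt+/+, and with lists of equal size in Pemt+/+, with 2.45 against 2.36. No order of the groups was therefore read from the densities. Regions were inside or overlapping the transcript in 46.7% and 47.4% of liver pairs and in 53.7% and 51.9% of other pairs.

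Bile acid genes of the liver had regions with many and with few tags. Cyp7a1, the rate-limiting enzyme of the classic bile acid pathway, had an upstream region of 14 tags in Pemt-/- and 24 in Pemt+/+, at 8421 and 8383 bp from its start, and an internal region of 21 and 22 tags. Both of its regions were shared between the libraries. Cyp7b1, which hydroxylates oxysterols in the alternative pathway, had 3 internal regions in Pemt-/- with 13, 31 and 16 tags and 5 in Pemt+/+ with 17, 11, 23, 17 and 17. Its Pemt-/- region at 18001754 to 18002350 of chromosome 3 (597 bp) had 31 tags. The overlapping Pemt+/+ region at 18001958 to 18002414 (457 bp) had 23 tags. This was the highest ratio of all shared Cyp regions, 1.35, and because it was picked as such it cannot show a difference from the background. Cyp39a1, an oxysterol 7α-hydroxylase of 84.1 kb, had 8 regions with 128 tags in Pemt-/- and 10 regions with 251 tags in Pemt+/+. Its Pemt+/+ region at 43867963 to 43868744 of chromosome 17 (782 bp) had 53 tags. The overlapping Pemt-/- region at 43868462 to 43868844 (383 bp) had 16 tags. This was the lowest ratio of the shared Cyp regions, 0.302, between stretches of unlike length. The Pemt-/- share of these tags was 23.2% (14.8 to 34.4%), where all shared regions had 39.9%. Because this region was picked as the lowest of the shared Cyp regions, its interval cannot show a difference from the background. The Cyp39a1 region with most tags, upstream, had 43 and 62. Cyp27a1, the mitochondrial sterol 27-hydroxylase, was listed in Pemt+/+ only, with regions of 11 and 12 tags. Cyp46a1, the cholesterol 24-hydroxylase of brain, was listed in Pemt+/+ only with 11 tags.

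Among the drug-metabolizing families, Cyp2c enzymes oxidize drugs and arachidonic acid. The subfamily on chromosome 19 had 29 regions with 463 tags in Pemt-/- and 31 with 664 tags in Pemt+/+, at 10 and 11 genes. Cyp2c44, an epoxygenase of arachidonic acid that lies apart from the other Cyp2c genes on the chromosome, had 61 and 105 tags. Cyp2c37 had 3 shared regions with 33, 15 and 8 tags in Pemt-/- and 30, 22 and 21 in Pemt+/+. Of these, the first was more than 1.5-fold above and the last more than 1.5-fold below the median ratio of all shared regions. Cyp2b10, a phenobarbital-inducible gene, had an upstream region of 29 and 41 tags with the highest enrichment over background of Cyp regions in Pemt+/+, 49.0-fold, beside 46.0-fold in Pemt-/-. The highest in Pemt-/- was at Cyp3a59, upstream, with 51.01-fold and 25 tags, beside 42.7-fold and 33 tags in Pemt+/+. An enrichment of 40-fold or more was found for 4 of 112 Cyp regions in Pemt-/- (3.57%), against 1.12% of all regions, and for 5 of 145 in Pemt+/+ (3.45%), against 1.997%. In Pemt+/+ the regions at Cyp20a1 (40.04-fold) and Cyp2c50 (40.02-fold) lay just past this limit. The counts are small and depend on where the limit is set, so no difference from all regions was read from them.

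Cyp2e1, which oxidizes ethanol, had 1 downstream region of 10 tags in Pemt-/- and 19 in Pemt+/+. Cyp3a11, a major drug-oxidizing enzyme of mouse liver, had a downstream region of 9 and 11 tags and an upstream region of 8 and 11. Cyp2a5, the coumarin hydroxylase, had 1 upstream region of 8 and 22 tags, which also lay downstream of Cyp2g1. The Cyp2d cluster had 3 regions in each library, with Cyp2d34 highest at 17 and 24 tags, and Cyp2d9 had 1 downstream region of 13 tags in Pemt-/- only. The Cyp2j cluster, of 7 genes, had regions at Cyp2j8 and Cyp2j13 only. Cyp2j13 had 54 tags in Pemt-/- and 118 in Pemt+/+, all inside the gene.

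Fatty acid hydroxylases of the Cyp4 family differed between members. Cyp4a32 had 39 tags in Pemt-/- and 34 in Pemt+/+, and its shared region had 29 and 24. Cyp4a14, a peroxisome proliferator-responsive gene, had 1 region of 10 tags in Pemt+/+ only. Cyp4f14, which acts on leukotriene B4, had a shared downstream region of 29 and 33 tags and a further one of 14 tags in Pemt+/+. Cyp4f13 and Cyp4f17 had regions in Pemt+/+ only, with 22 and 40 tags in all. Cyp4v3 had 1 region of 18 tags in Pemt-/- and 4 regions with 64 tags in Pemt+/+. Cyp4x1 was listed in Pemt-/- only, with 9 tags downstream.

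Genes of steroid hormone, vitamin D and retinoic acid metabolism, mostly used outside the liver, had regions as well. Cyp19a1, the aromatase, had 3 regions in Pemt-/- with 12, 11 and 13 tags, and 8 in Pemt+/+ with 12 to 16 tags. The 3 Pemt-/- regions were shared, and 5 Pemt+/+ regions with 73 tags overlapped none of Pemt-/-. Cyp11b1, the 11β-hydroxylase of the adrenal cortex, had 1 downstream region of 40 and 53 tags. Cyp17a1, which makes androgen precursors, had 1 downstream region of 12 and 29 tags. Cyp21a1, the steroid 21-hydroxylase, had 32 and 79 tags in 2 and 5 regions. Cyp24a1, which degrades active vitamin D, had an internal region of 18 and 31 tags and an upstream region of 9 and 12. Cyp2r1, a vitamin D 25-hydroxylase, had an upstream region of 29 and 46 tags. Cyp26a1, Cyp26b1 and Cyp26c1 degrade retinoic acid and had 24, 30 and 14 tags in Pemt-/- and 69, 22 and 40 in Pemt+/+. All tags of Cyp26c1 came from regions that were also counted at Cyp26a1. Of these 3 genes, Cyp26b1 was the one with more tags in Pemt-/-. Cyp1b1, Cyp2f2, Cyp2s1 and Cyp4b1, which were placed among the other subfamilies, had at most 19 tags in either library.

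**Figure D4:**
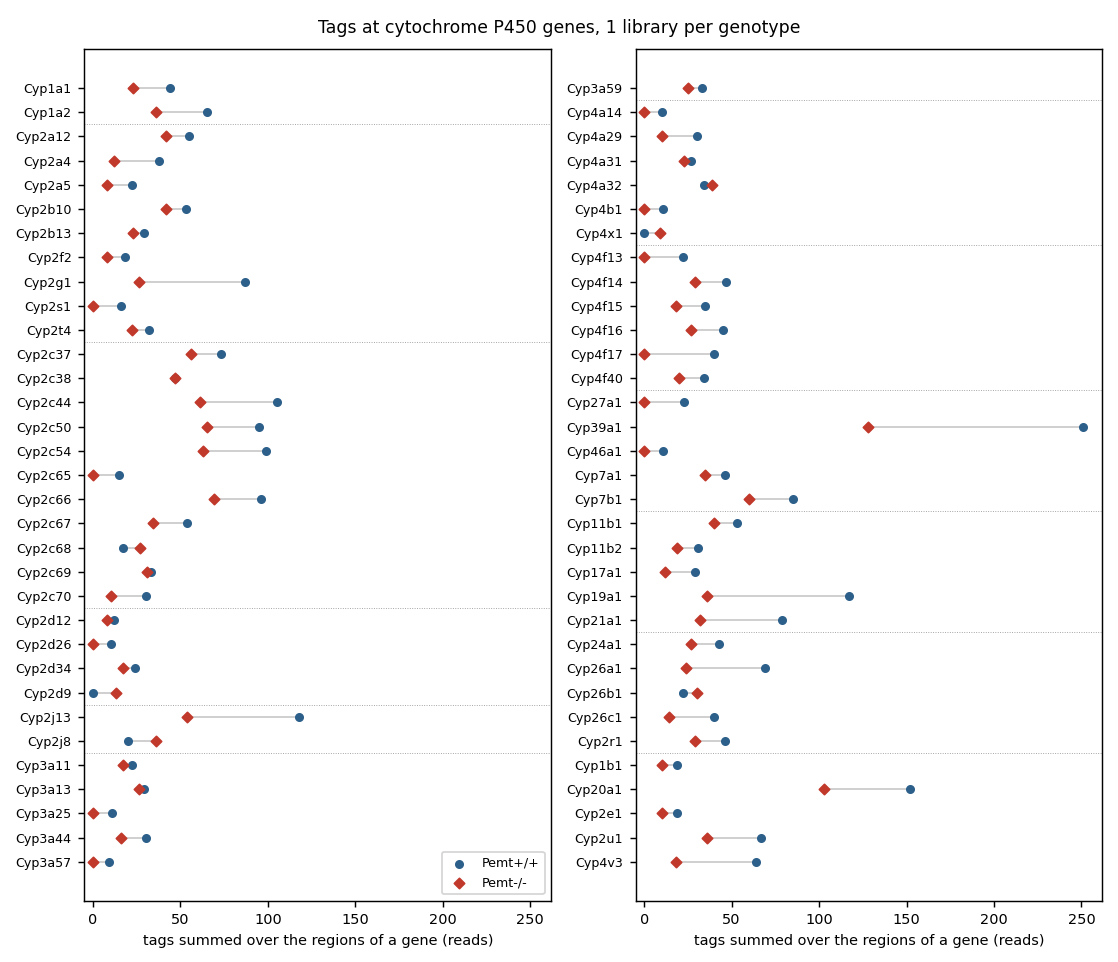
Tags summed over the regions of each of the 66 Cyp genes in Pemt-/- (red diamonds) and Pemt+/+ (blue circles), in order of cluster with dotted lines between clusters. 59 genes had fewer tags in Pemt-/-, 6 had more and 1 (Cyp2c38) had equal numbers, close to the 90.9% of all genes with fewer and the 8.05% with more, and a gene at 0 had no listed region in that library.

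Tags were compared between the libraries through the regions found in both. Of the 112 Pemt-/- Cyp regions, 19 overlapped no Pemt+/+ region (17.0%, 11.1 to 25.0%), against 16.7% of all Pemt-/- regions. Of the 145 Pemt+/+ Cyp regions, 52 overlapped none of Pemt-/- (35.9%, 28.5 to 43.9%), against 38.4%. Regions without a partner had a median of 10 and 11.5 tags, and those with one had 13 and 20. Summed over the 93 shared Cyp regions, tags numbered 1499 for Pemt-/- against 2210 for Pemt+/+, which is a Pemt-/- share of 40.4% (38.8 to 42.0%) against 39.9% of all 79393 shared regions. Dividing Pemt-/- tags by Pemt+/+ tags gave a median of 0.714 (95% interval 0.667 to 0.75, range 0.302 to 1.35), against 0.682 of all shared regions. A ratio at least 1.5-fold above that median was found for 6 of 93 (6.45%), against 10.4% of all, and 1.5-fold below for 11 of 93 (11.8%), against 10.9%. Shared Cyp regions were therefore close to the background in both directions. Liver-expressed members took 37.8% of their tags from Pemt-/- (36.1 to 39.6%) and the others 34.7% (32.4 to 37.1%), an order that turned with lists of equal size, at 40.7% and 41.7%.

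**Figure D5:**
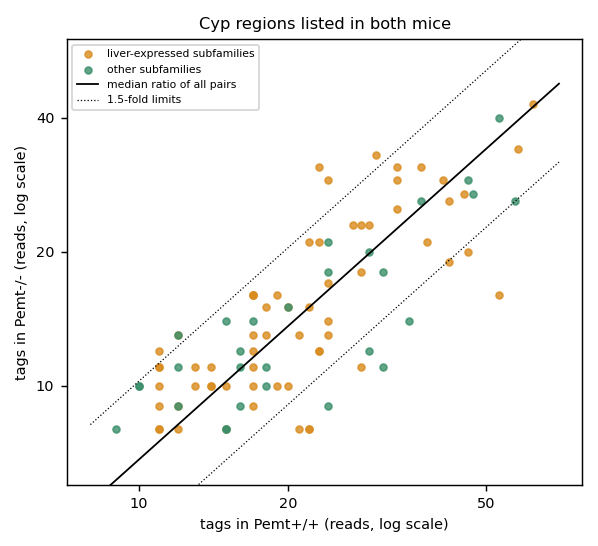
Tags in Pemt-/- against Pemt+/+ (log scales) for 93 Cyp regions listed in both libraries, by liver-expressed (orange) and other (green) subfamilies, where a region with genes of both groups is drawn once. The line is the median ratio of all shared regions, 0.682, and the dotted lines are 1.5-fold away from it, with 6 Cyp regions above and 11 below.

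By gene, the median share of tags from Pemt-/- over the 53 Cyp genes listed in both libraries with at least 20 tags was 38.6%, against 36.1% over 12608 genes. The lowest shares were 22.0% at Cyp4v3, 23.0% at Cyp2g1 and 23.5% at Cyp19a1, and the highest were 64.3% at Cyp2j8, 61.4% at Cyp2c68 and 57.7% at Cyp26b1. In shared regions alone the shares of these genes were 39.1%, 29.5% and 45.0%, and 42.9%, 48.5% and 48.8%. These 6 genes were chosen as the extremes of the share over all their regions.

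The shorter list of each library, which holds regions found against another comparison not stated in the sources used here, had few Cyp regions. In Pemt-/- it held 2 of 112 (1.79%), against 2.13% of all regions, at Cyp2c38 with 14 tags inside the gene and at Cyp2d9 with 13 tags, 2310 bp downstream. The deposited false discovery rate was 100% at both. In Pemt+/+ it held 5 of 145 (3.45%), against 4.59% of all regions, at Cyp39a1 (53 tags), Cyp20a1 (29), Cyp2a4 (21), Cyp2c70 (15) and Cyp1b1 (9). Their deposited rates were between 30.5% and 36.2%. Only the Cyp39a1 region overlapped a region of the other library, with the 16 tags given above.

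Partners and regulators of P450 enzymes were counted in the same way. The list of 16 genes also held Cyp51, itself a P450 gene outside the symbol rule, which had regions in both libraries. Of the 16 genes, 12 had a region in each library, against 58.4% and 63.1% of all protein-coding genes, and 4 had none in either. None had a region at its 5′ end, against 1.9% and 2.6% of listed genes. Over all genes listed in both libraries with at least 20 tags the median Pemt-/- share of tags was 36.1%. Por, the reductase that passes electrons to microsomal P450 enzymes, had 116 tags in Pemt-/- and 159 in Pemt+/+. Ahr, the receptor that induces Cyp1 genes, had 68 and 101, and Nr1i2 and Nr1i3, the receptors that induce Cyp3a and Cyp2b genes, had 63 and 102, and 14 and 34. Ppara, which induces Cyp4a genes, had 106 and 196. Rxra, the partner of these nuclear receptors, had 3 regions with 37 tags in Pemt-/- and 1 region with 9 tags in Pemt+/+, and Cyb5b, an electron donor, had 78 and 56. Cyb5a, Nr1h4, Nr0b2 and Nr5a2 had none.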

How the data were processed

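Liver DNA of Pemt-/- and Pemt+/+ mice on HFHS diet was enriched for methylated fragments and sequenced, with 1 library each. The submitters' processing notes name CASAVA 1.8.2, Bowtie and the build mm9, and settings, control and the handling of duplicate and multiply matching reads are not given in the sources used here. The deposited lists hold, per region, tags (raw counts of reads), a score of 10 times −log10 of a p-value computed by the authors, an enrichment ratio (fold) over background by the authors and, in the shorter lists, a false discovery rate in percent by the authors. Each region also has the authors' annotation to transcripts up to 10 kb away. Regions were joined by an overlap of at least 1 bp, 1 to 1. The tags of a shared region were those of the stretch listed in each library, and these stretches can differ in place and length. Ratios of tags were set against the median of all shared regions, and 1.5-fold away from it was counted. Shares have Wilson, densities exact Poisson and medians order-statistic intervals of 95%, and no p-value was computed. Gene lengths and names came from RefSeq GRCm38, used with mm9 regions for lengths and names only; Cyp2c44 was matched by gene ID. Promoters were found for 48 of 66 members (72.7%), under the 80% needed, so no promoter comparison over members was made. The strand read from the distances was that of RefSeq in 34 of 34 members. Genes named were those in a shorter list, the gene with most tags per cluster, the 3 highest and lowest shares, and a list of liver and other genes. Members and lists were chosen with earlier results of these data known, and genes beyond this rule were named after their values were seen. Python 3.11.15, pandas 2.3.3, numpy 2.4.6, scipy 1.17.1 and matplotlib 3.10.9 were used, and the overlap step was tested on simulated data. Lists with only the upper 50% by score, equal list sizes, 50% overlap, regions inside transcripts, looser symbols and a wider liver list were tried.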

Additional observations from a re-analysis of the deposited data

How the results depend on the processing

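No paired analysis was possible because there was a single library for each genotype. Of the values set against alternatives, 114 were within their interval or 1.5 times the count and 37 moved, none of them under 50% overlap, looser symbols or the wider liver list. Keeping the upper 50% by score left 34 Cyp genes and 51 regions in Pemt-/- and 80 regions in Pemt+/+, by construction, with 94.1% of Pemt-/- regions shared, median tags of 20 and 22.5, and 1 Pemt-/- region in the shorter list. Densities were then 1.26 and 0.957 per 100 kb for liver-expressed and other genes in Pemt-/-, and 1.93 and 1.69 in Pemt+/+, and shares of tags from Pemt-/- 33.5% (all), 34.7% (liver) and 29.9% (other). With lists of equal size 73.2% of Pemt-/- and 78.8% of Pemt+/+ regions were shared, the Pemt+/+ median was 20 tags, its densities were 2.45 and 2.36, and the tag shares 41.1%, 40.7% and 41.7%. With regions inside transcripts only, 31 and 36 genes and 57 and 74 regions remained, 1 and 3 in the shorter lists, with liver densities of 1.87 and 2.46. Beyond these constructions the cause was not tested. The densities by size of subfamily and by gene length were added after seeing the data. Subfamilies of 4 or more and of 3 or fewer genes had 1.03 and 1.45 regions per 100 kb in Pemt-/- and 1.56 and 2.48 in Pemt+/+ with the upper 50%. The smaller ones had 3.24 in Pemt+/+ with equal lists, and the larger ones had 1.60 in Pemt-/- and 1.71 in Pemt+/+ with regions inside transcripts. The density of Cyp relative to all genes of 20 to 50 kb was 0.484 in Pemt-/- and 0.491 in Pemt+/+, and 0.431 to 0.6003 and 0.418 to 0.560 under its alternatives. Depth limits single regions: most rest on fewer than 20 tags.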

Other observations

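Some P450 genes lie outside the symbol rule. Cyp3a41a had 6 regions in each library, with 146 tags in Pemt-/- and 197 in Pemt+/+, none inside the gene, and Cyp3a41b had 3 regions with 78 and 98 tags. The tag counts of the Cyp3a41b regions, 13, 32 and 33 in Pemt-/- and 10, 46 and 42 in Pemt+/+, also occur among those of Cyp3a41a, so both genes share them. Cyp4a12a had 1 internal region of 9 and 20 tags and Cyp4a12b 1 of 19 and 24. Cyp4a30b had 12 tags in Pemt-/- and 28 in Pemt+/+. Cyp51, which demethylates lanosterol in cholesterol synthesis, had 4 regions in each library with 56 and 59 tags.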
